A study of Mus musculus with 6 samples.

Results

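The type 2 axis is described here through 5 genes: Il33, Il1rl1, Il5, Il13 and Areg. They were taken by name, and all 5 have a column among the 16158 genes of each of the 6 mice. IL-33 is an alarmin that barrier and stromal cells hold in the nucleus and release when damaged. ST2, the product of Il1rl1, is its receptor, and in skin it is known on regulatory T cells, mast cells, basophils and some type 2 innate lymphoid cells (ILC2). IL-5 recruits and sustains eosinophils, IL-13 acts on epithelium and macrophages, and amphiregulin (Areg) is an EGF receptor ligand tied to tissue repair.

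Skin of 6 NINJA mice aged 6-12 weeks was profiled as single cells with a 10x Genomics 5' kit, with 2 mice in each of 3 groups. The cells came from the area to which 4-OH-Tam was given, in all 3 groups, and the protocol names P14 cells, CD8 T cells with a fixed receptor, as recovered from every mouse. NO_AG is the group the series design calls Ag OFF, AG is its Ag ON group, and AG_CPI is Ag ON with CPI, which the labels do not spell out. The Cre line or promoter behind the antigen switch is not given in the sources used here. AG enters 2 of the 3 comparisons, and so do NO_AG and AG_CPI, so the comparisons share mice.

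The 6 libraries held 21178 cells, of which 20461 were kept, and their median depth ran from 2527 to 4744 UMIs per cell. Any 2 libraries shared 5 to 35 cell barcodes. The library AG_CPI 1 stood apart: Ddx3y, a Y-linked gene, had a UMI in 16.0% of its cells outside the T cells and in none of those of the other 5 mice, and Xist had one in 2.15% against 66.4% to 85.0%. Keratinocyte-like cells of AG 2 formed clusters largely of their own. Levels below are the mean, over the cells of a class in 1 mouse, of UMIs per 10000 UMIs of the cell. Tests were made with limma on log2(level + 0.1) over all genes that passed a filter on low values, with Benjamini-Hochberg adjustment over those genes and a threshold of 0.05. This scale understates the change of low genes. For a single gene, an exact permutation test of 2 mice against 2 cannot give a p below 0.33.

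Il5 and Il13 lie close together on mouse chromosome 11 of GRCm38.p6, Il13 at chr11:53631323-53634702 and Il5 at chr11:53720794-53725103, with Rad50 between them at chr11:53649519-53707319. Il33 lies at chr19:29925113-29960718, Il1rl1 at chr1:40404864-40465418 and Areg at chr5:91139599-91148432. The 250 bases ahead of a start site are shown for the members detected in lymphoid cells, because Il5 and Il13 were found in ILC2-like cells and Il1rl1 almost not at all. Sequences are from RefSeq, on the strand of the gene, and all 5 members matched an entry. Capitals mark the word AGATAA, the word AGATAG, the word TGATAA and the word TGATAG on either strand, which GATA factors are known to bind, and in Areg the word TGACGTCA, the cyclic AMP response element. The Il5 window is chr11:53720544-53720793 on the plus strand, Il13 is chr11:53634703-53634952 on the minus strand, Il1rl1 is chr1:40429320-40429569 on the plus strand at the first of its 2 entries, and Areg is chr5:91139349-91139598 on the plus strand.
Il5: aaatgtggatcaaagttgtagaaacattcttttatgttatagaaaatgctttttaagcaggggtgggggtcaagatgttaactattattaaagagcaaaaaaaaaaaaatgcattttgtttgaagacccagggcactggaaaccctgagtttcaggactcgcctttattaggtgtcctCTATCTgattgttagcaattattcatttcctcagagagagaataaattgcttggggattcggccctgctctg
Il13: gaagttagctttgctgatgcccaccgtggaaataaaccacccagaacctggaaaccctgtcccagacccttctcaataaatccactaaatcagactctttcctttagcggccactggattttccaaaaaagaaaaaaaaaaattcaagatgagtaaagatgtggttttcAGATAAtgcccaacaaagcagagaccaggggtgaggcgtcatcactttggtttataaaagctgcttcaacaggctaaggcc
Il1rl1: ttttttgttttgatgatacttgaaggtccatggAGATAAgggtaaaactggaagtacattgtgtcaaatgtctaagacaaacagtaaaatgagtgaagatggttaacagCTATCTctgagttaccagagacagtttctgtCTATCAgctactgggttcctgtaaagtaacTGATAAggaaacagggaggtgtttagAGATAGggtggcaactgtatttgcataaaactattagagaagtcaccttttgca
Areg: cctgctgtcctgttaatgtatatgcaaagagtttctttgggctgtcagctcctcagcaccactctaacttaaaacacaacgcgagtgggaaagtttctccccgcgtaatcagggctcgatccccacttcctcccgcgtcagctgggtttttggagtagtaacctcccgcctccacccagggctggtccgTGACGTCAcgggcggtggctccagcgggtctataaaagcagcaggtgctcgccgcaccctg

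One of the GATA words was found in the Il5 window, 1 in the Il13 window and 5 in this Il1rl1 window. The other Il1rl1 window held 1, and there was none in the Areg window or in either of the 2 Il33 windows. Of 32841 promoter windows of the same length, 26.5% held at least 1 of these words. The full TGACGTCA word stood 61 to 54 bases ahead of the Areg start, and 1.55% of all windows held it. These matches describe letters only, and no binding was measured.

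Il33 UMIs came almost wholly from keratinocytes. Keratinocyte-like cells, which had Krt14 UMIs in 91.0% and Krt5 UMIs in 85.9% of 9334 cells, held 94.2% of the 1189 Il33 UMIs of NO_AG, 90.8% of the 293 of AG and 90.3% of the 62 of AG_CPI. As a background share, 1 of 2079 CD8 T cells had an Il33 UMI, at a median of 2559 UMIs per cell against 4867 in Keratinocyte-like cells. No Foxp3 T cell of 368 had one, which allows a share of cells with a UMI of up to 0.815%, and no CD4 T cell of 283, which allows up to 1.06% (3 counts of the total, counting error only).

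In Keratinocyte-like cells the Il33 level was 0.368 and 0.348 in the 2 NO_AG mice, 0.0915 and 0.279 in the AG mice, and 0.260 and 0.110 in the AG_CPI mice. Both NO_AG mice lay above the other 4 mice, and AG and AG_CPI overlapped. Mitochondrial UMIs in these cells were 4.59% and 4.4% in NO_AG, 4.19% and 7.24% in AG, then 6.08% and 6.98% in AG_CPI. The summed level of 13 αβ T cell markers was 0.803 and 1.01 in NO_AG, 1.24 and 5.0 in AG, then 2.16 and 4.59 in AG_CPI. Both NO_AG mice were the lowest for these markers. The part of either in the Il33 level was not tested. Cells with an Il33 UMI were 14.5% and 14.7% in NO_AG, 5.23% and 4.46% in AG, then 7.33% and 3.46% in AG_CPI. After thinning each cell to 1500 UMIs these shares became 5.10% and 4.68%, 1.34% and 2.86%, and 3.77% and 1.34%, so NO_AG stayed above the others at equal depth. None of the differences passed the limma test. The log2 difference of AG against NO_AG was -0.71 (SE 0.38, adjusted p = 0.844), with 0.229% of 8288 genes called. AG_CPI against NO_AG gave -0.66 (SE 0.38, adjusted p = 0.502; 0.0483% of genes called). AG_CPI against AG gave 0.05 (SE 0.38, adjusted p = 0.984), where 0.0% of genes were called and 584 had an unadjusted p under 0.05. With 1 mouse left out, AG against NO_AG ran from -1.20 (without AG 2) to -0.22 (without AG 1) and AG_CPI against NO_AG from -1.09 (without AG_CPI 1) to -0.24 (without AG_CPI 2). The sign of AG_CPI against AG turned when AG 1 or AG_CPI 1 was left out.

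**Figure D1:**
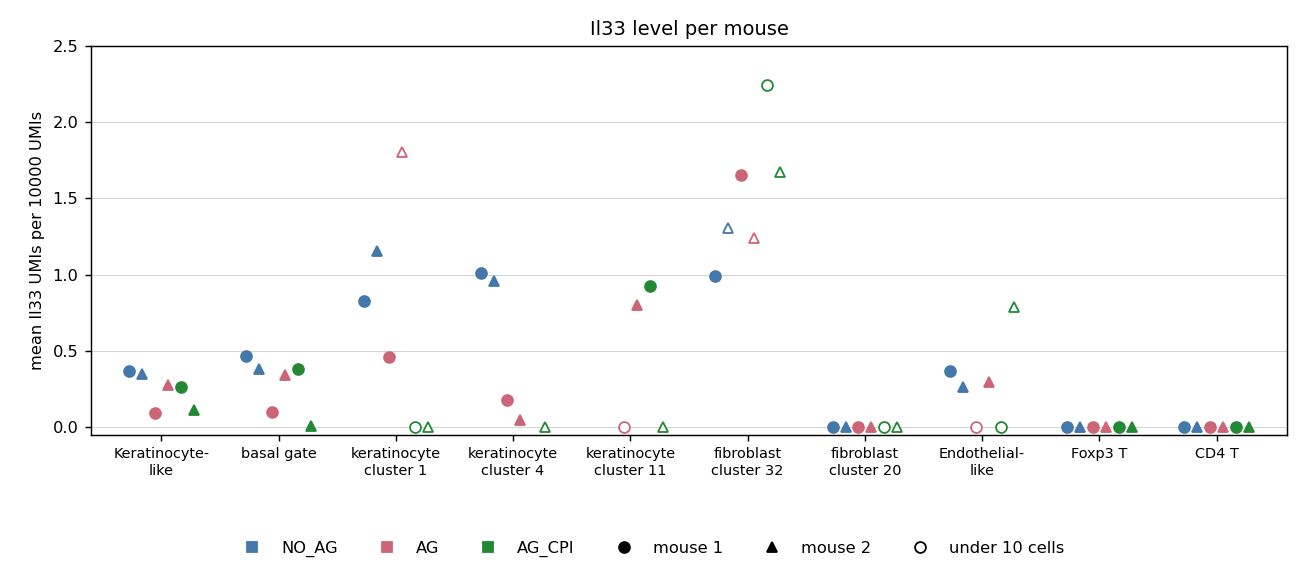
Mean Il33 UMIs per 10000 UMIs (linear vertical axis) for each mouse in keratinocyte, fibroblast, endothelial and T cell groups. Color is the group, shape the mouse, and open symbols have under 10 cells. Both NO_AG mice lie above the other 4 in Keratinocyte-like cells, all fibroblast Il33 lies in cluster 32, and T cells are at or near 0.

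The Il33 UMIs lay in different keratinocyte clusters in different mice. Clustering left the 5 members out, but many clusters are mostly cells of 1 mouse, so their sizes are given only to show which cells the values come from. Cluster 1, which expresses Krt15 and Col17a1 as cells of the basal layer do, held 232 of the 581 keratinocyte Il33 UMIs of NO_AG 1 and 277 of the 539 of NO_AG 2. Cluster 4, led by Avpr1a, held 185 and 104. Cluster 1 had 550 and 355 cells of the NO_AG mice, 39 and 3 of the AG mice and 1 of each AG_CPI mouse. Cluster 4 had 333 and 160, 21 and 30, and 0 and 3 in the same order. In AG 2, 139 of 191 keratinocyte Il33 UMIs lay in the 590 cells of cluster 11, which is led by Il24, Tslp and the wound keratins Krt6a and Krt16. In AG 1 the largest part, 28 of 75, lay in cluster 38, and in AG_CPI 2 it was 36 of 39 in cluster 10, whose leading genes Krt10 and Krt1 mark suprabasal cells.

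Within cluster 1 the Il33 level was 0.829 and 1.16 in NO_AG and 0.459 in AG 1, from 39 cells, and the other 3 mice had 3 cells or fewer. Within cluster 4 it was 1.01 and 0.957 in NO_AG, 0.177 in AG 1 and 0.0437 in AG 2. These within-cluster values were not tested. In a gate for basal keratinocytes, cells with a Krt15 or Col17a1 UMI and no Krt1 or Krt10 UMI, the level was 0.465 and 0.384 in NO_AG, 0.0994 and 0.343 in AG, then 0.379 and 0.00678 in AG_CPI. NO_AG lay above AG and AG_CPI, but the mice within AG and within AG_CPI lay far apart. AG against NO_AG gave -0.77 (SE 0.69, limma adjusted p = 1.00), where 0.21% of 8113 genes were called, and it was -0.19 without AG 1 and -1.35 without AG 2. No difference passed the test, the largest being -1.12 (SE 0.69, limma adjusted p = 0.552, 0.0123% of 8113 genes called) for AG_CPI against NO_AG. That value was 0.0049 without AG_CPI 2.

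**Figure D2:**
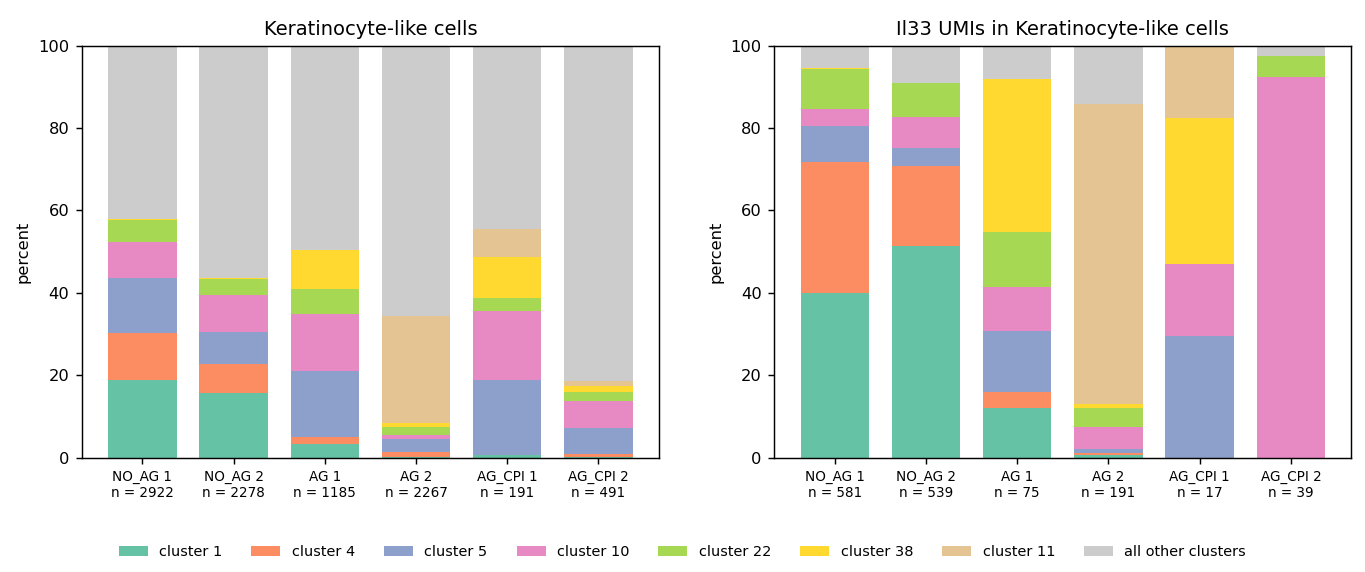
Left, the percent of each mouse's Keratinocyte-like cells in 7 clusters, and right, the percent of its keratinocyte Il33 UMIs in the same clusters, with the number of cells or UMIs under each bar. Clusters 1 and 4 hold most Il33 UMIs of both NO_AG mice, cluster 11 holds 139 of 191 in AG 2, and cluster 10 holds 36 of 39 in AG_CPI 2.

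Fibroblasts were a small source. All 19 fibroblast Il33 UMIs lay in the 45 cells of cluster 32, led by Clec3b, Pi16 and Igfbp6 and expressing Col1a1 and Dpt, where 11 cells (24.4%, Wilson 95% interval 14.2% to 38.7%) had a UMI. Cluster 20, led by Crabp1, Vcan and Rspo3, had none in 199 cells, which allows a share of cells with a UMI of up to 1.51%. That limits detection at this depth, and not the share of cells that express Il33. Their median depths were 3793 and 3932 UMIs. The level in cluster 32 was 0.990 and 1.30 in NO_AG, 1.65 and 1.24 in AG, then 2.24 and 1.67 in AG_CPI, but it rests on 1 to 6 UMIs per mouse. The order of the groups is therefore not readable at this depth, and no member passed the filter in Fibroblast-like cells, where 0.176% of 4553 genes were called for AG against NO_AG. Endothelial-like cells gave 15 Il33 UMIs in all, at levels from 0 to 0.790. Of these, 7 came from AG 2, where the summed level of 19 keratinocyte markers in Endothelial-like cells was 157, against 39.1 in NO_AG 2 and 5.20 to 10.0 in the other mice. Its part in the Endothelial-like Il33 was not tested.

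Over all cells together Il33 was lower in AG_CPI than in NO_AG, and this was the 1 member difference that passed the test among the 41 made. The level over all cells was 0.248 and 0.215 in NO_AG, 0.0391 and 0.154 in AG, then 0.0303 and 0.0321 in AG_CPI, with no overlap between the groups NO_AG and AG_CPI. The log2 difference was -1.24 (SE 0.27, limma adjusted p = 0.0130). In this comparison 34.5% of 8854 genes were called, and 17.5% were called lower, so a call here is common. Keratinocyte-like cells made up 61.3% and 57.7% of the cells in NO_AG and 11.2% and 22.6% in AG_CPI, and within that class the Il33 difference did not pass. Fewer cells of a type and less RNA per cell cannot be told apart in such a mean over all cells. Leaving out any 1 mouse of these 2 groups took the adjusted p to between 0.0528 and 0.0853. AG against NO_AG gave -0.73 (SE 0.27, adjusted p = 0.157, 6.0% of genes called), and -1.17 (adjusted p = 0.0149) without AG 2. AG_CPI against AG gave -0.50 (SE 0.27, adjusted p = 0.297, 4.28% of genes called), and -0.94 (adjusted p = 0.0209) without AG 1.

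The receptor gene Il1rl1 was found on T cells and basophils and hardly on the ILC2-like cells. Foxp3 T cells, gated on a UMI of the regulatory T cell factor Foxp3 and no UMI of Cd8a or Cd8b1, held 32.1% of all Il1rl1 UMIs, and 73 of 368 of them (19.8%, Wilson 95% interval 16.1% to 24.2%) had one. In CD4 T cells with no Foxp3 UMI it was 26 of 283 (9.19%), and in Basophil-like cells 10 of 39 (25.6%). In ILC2-like cells it was 2 of 335 (0.597%, Wilson interval 0.164% to 2.15%), against a background of 28 of 9334 Keratinocyte-like cells (0.3%). Median depths were 2539, 2473, 1984, 2371 and 4867 UMIs. This background lies inside the ILC2-like interval, but 22 of its 28 cells came from AG 2. Without AG 2 it was 6 of 7067 cells (0.0849%, Wilson interval 0.0389% to 0.185%), against 2 of 310 ILC2-like cells (0.645%, Wilson interval 0.177% to 2.32%). With so few cells, whether the ILC2-like share lies above the background rests on that mouse. Cluster 29, where 57.2% of 775 cells had a Foxp3 UMI, held 206 of the 299 Il1rl1 UMIs, in 146 cells. T cells outside the Foxp3, CD4 and CD8 gates held 24.4% of the UMIs. A missing Foxp3 UMI limits detection at this depth and not expression, so the CD4 T class can hold regulatory T cells.

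The ILC2-like class was checked against its markers. It is the part of cluster 19, led by Ccr6, Cd70 and Tnfrsf25, that had no UMI of Cd3d, Cd3e, Trac or Trdc. Of its 335 cells, 68.7% had Il7r, 58.8% Rora, 48.1% Gata3 and 43.0% Il18r1, the receptor chain for IL-18. Of the other markers on its list, Icos was found in 46.6%, Ltb4r1 in 23.6% and Il17rb in 11.9%. The rest were rarer: Dgat2 8.66%, Rnf128 7.16%, Lpcat2 5.97%, Csf2 4.78%, Ccl1 2.99%, Arg1 2.69%, Calca 2.09%, Ptgdr2 1.49% and Pparg 0.597%. Klrg1 had UMIs in 1 cell, Nmur1 in 3 and Hs3st1 in none. Il17a, a cytokine of other innate and γδ T cells, had none. The name therefore rests on few of its markers. Naming each cell by its own UMIs gave 44 and 54 ILC2-like cells in NO_AG and 53 and 12 in AG. Its size per mouse was 99 and 95 cells for NO_AG, 109 and 25 for AG, then 4 and 3 for AG_CPI.

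In Foxp3 T cells the Il1rl1 level was 1.74 and 0.673 in NO_AG, 0.577 and 0.972 in AG, then 0.837 and 1.72 in AG_CPI. All 3 groups overlapped. The log2 differences were -0.55 for AG against NO_AG, 0.66 with AG_CPI against AG, then 0.10 with AG_CPI against NO_AG (SE 0.55 each, limma adjusted p = 0.983, 0.989 and 0.968). In each of these 3 comparisons 0.0% of 3661 genes were called, and 148, 97 and 332 had an unadjusted p under 0.05. AG_CPI against AG ran from 0.20 (without AG_CPI 2) to 1.08 (without AG_CPI 1) with 1 mouse left out, and was 0.29 without AG 1. In CD4 T cells the Il1rl1 level was 0.722 and 0 in NO_AG, 0.340 and 0.701 in AG, then 1.07 and 1.54 in AG_CPI. Both AG_CPI mice lay above the other 4, on 4 and 12 UMIs, but all 4 of AG_CPI 1 were in 1 of its 19 cells. By share of cells with a UMI, AG_CPI 1 (5.26%) lay below NO_AG 1 (6.67%), AG 1 (6.25%) and AG 2 (12.7%). Against NO_AG the log2 difference was 2.25 (SE 0.86, adjusted p = 0.306, 0.59% of 3050 genes called), against AG it was 1.27 (SE 0.86, adjusted p = 0.882, 0.0% called, 173 genes at an unadjusted p under 0.05), and AG against NO_AG gave 0.98 (SE 0.86, adjusted p = 0.916, 0.0328% called). Without NO_AG 2, the mouse at 0, the first of these was 0.68. Leaving out NO_AG 1 moved the same value to 3.81, and leaving out AG 1 moved that against AG to 0.79. The summed level of 19 keratinocyte markers in CD4 T cells was 3.39 and 3.61 in AG_CPI and 6.50 to 8.66 in the other mice. Its part in the Il1rl1 level was not tested.

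Keratinocyte-like cells of AG 2 had 22 Il1rl1 UMIs in 0.970% of cells, against 0 to 0.253% in the other 5 mice. The summed level of 13 αβ T cell markers in these cells was 5.0 in AG 2, 4.59 in AG_CPI 2 and 0.803 to 2.16 in the other mice. Its part in the Il1rl1 share was not tested.

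**Figure D3:**
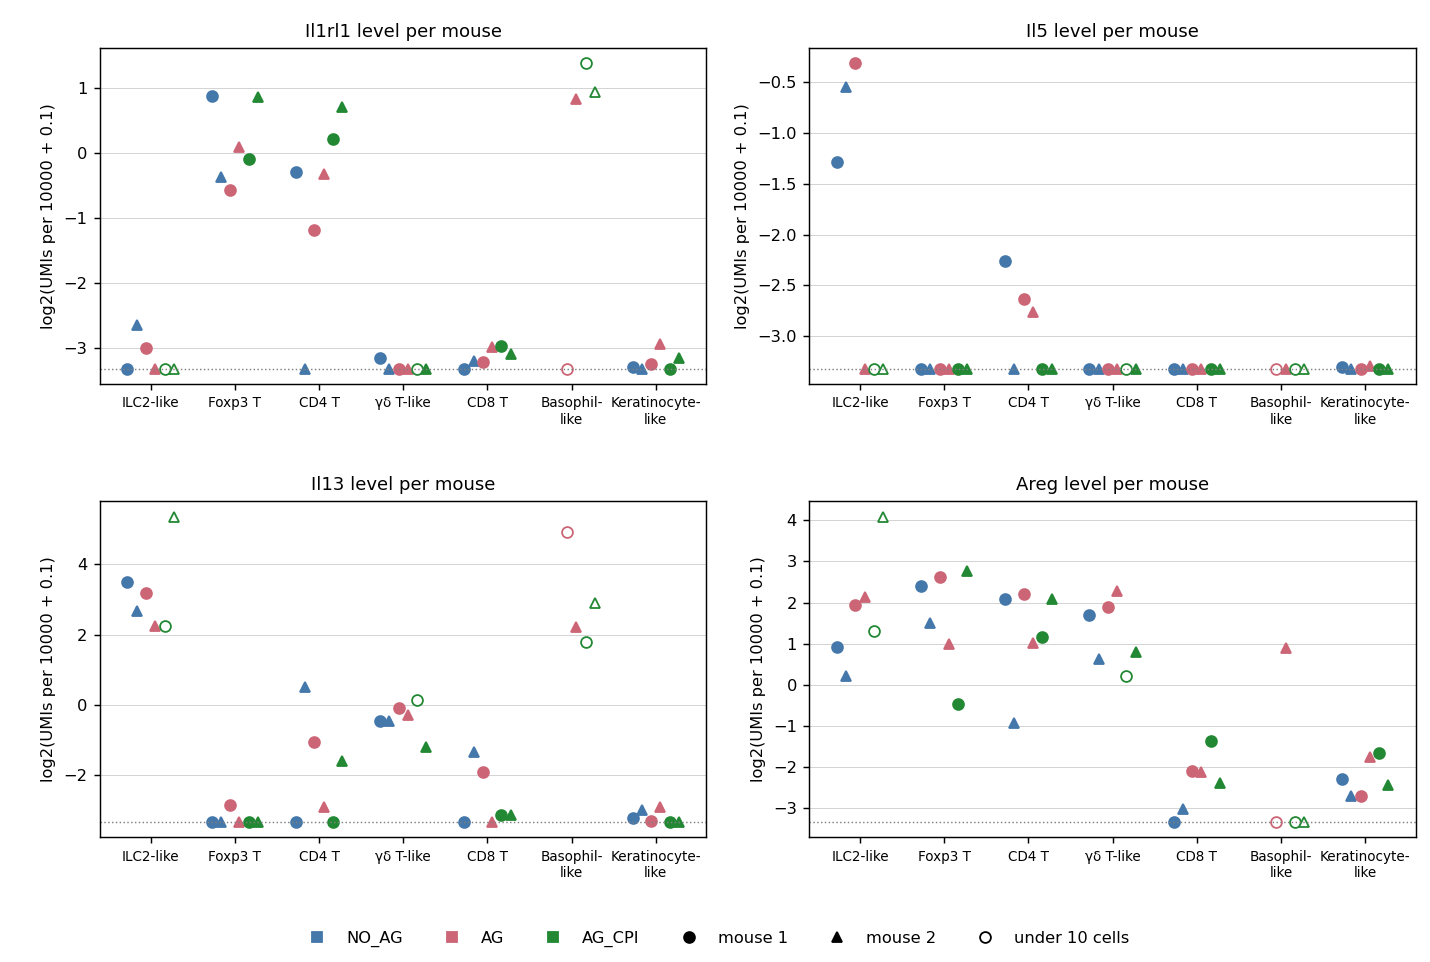
Levels of Il1rl1, Il5, Il13 and Areg per mouse in 7 cell classes, as log2(UMIs per 10000 + 0.1). The dotted line is a level of 0, color is the group, shape the mouse, and open symbols have under 10 cells. CD8 T cells stand at 0 to 0.291 for Areg, below every mouse of the ILC2-like, Foxp3 T, CD4 T and γδ T-like classes (0.429 or more), and at 0 to 0.293 for Il13, while ILC2-like cells stand at 4.66 or more for Il13.

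Il5 was rare, and the ILC2-like cells held 44 of its 63 UMIs, all from NO_AG 1, NO_AG 2 and AG 1. None of the 4 Il5 UMIs of AG 2 was in these cells. In that class the Il5 level was 0.311 and 0.583 in NO_AG and 0.706 in AG 1, on 8, 15 and 21 UMIs, while AG 2 had none in 25 cells. That allows a share of cells with a UMI of up to 12.0%, above the shares found in NO_AG 1 (7.07%) and AG 1 (11%) and below that of NO_AG 2 (14.7%). The log2 difference of AG against NO_AG was -0.89 (SE 1.00, limma adjusted p = 0.897), and 0.62 without AG 2. The 7 ILC2-like cells of AG_CPI had no Il5 UMI and entered no test. In Foxp3 T and γδ T-like cells no Il5 UMI was found, and CD4 T cells had 3.

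Il13 had UMIs in 181 of 335 ILC2-like cells (54.0%, Wilson interval 48.7% to 59.3%), against a background of 34 of 9334 Keratinocyte-like cells (0.364%). The ILC2-like cells held 51.5% of the Il13 UMIs of NO_AG, 50.8% of those of AG and 41.2% of those of AG_CPI. By mouse this share was 64.7% and 39.0%, 59.9% and 18.1%, and 25% and 44.1%, and in AG 2 Basophil-like cells held more, 22.5%. The level was 11.1 and 6.34 in NO_AG and 9.06 and 4.66 in AG, with the 2 groups overlapping. Cells with a UMI were 53.5% and 61.1% in NO_AG and 54.1% and 36.0% in AG. The log2 difference was -0.35 (SE 0.33, limma adjusted p = 0.876). In this comparison 0.0% of 3417 genes were called and 148 had an unadjusted p under 0.05. The sign turned to 0.13 without AG 2 and to 0.07 without NO_AG 1. Without AG 1 the value was -0.80 with an adjusted p of 0.00111, from a fit with 1 residual and 406 prior degrees of freedom, which takes the spread of Il13 almost wholly from other genes. The few AG_CPI cells gave 4.67 from 4 cells and 41.0 from 3 cells, the latter with all 30 UMIs in 1 cell.

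Outside the ILC2-like cells, Il13 was found in γδ T-like cells, of which 96.3% had a Trdv4 UMI and 85.7% a Trdc UMI, both γδ receptor segments. Their Il13 level was 0.634 and 0.633 in NO_AG and 0.838 and 0.727 in AG, so both AG mice were higher. The log2 difference was 0.41 (SE 0.22, limma adjusted p = 0.643), with 0.0% of 7187 genes called and 610 at an unadjusted p under 0.05. Basophil-like cells, with Hdc in 97.4%, Gata2 in 87.2% and Fcer1a in 43.6% of 39 cells, had Il13 UMIs in 14 cells (35.9%). They were found in AG and AG_CPI only, with 29 of the 39 in AG 2, where the Il13 level was 4.53 and that of Il4 was 38.8. S100a9, S100a8 and Retnlg, neutrophil genes, are also among the 10 genes leading that cluster, with UMIs in 2, 3 and 2 cells. Foxp3 T cells had 3 Il13 UMIs in 2 of 368 cells. T cells outside the Foxp3, CD4 and CD8 gates held 170 of the 1720 Il13 UMIs, beside 231 in γδ T-like cells. In NO_AG 2 these T cells held 93, more than the 77 of γδ T-like cells.

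In CD8 T cells the Il13 level was 0 and 0.293 in NO_AG, 0.169 and 0 in AG, then 0.0144 and 0.0138 in AG_CPI. All but 2 of the 71 UMIs came from NO_AG 2 and AG 1, and the class leaves out cluster 35 with 715 and 846 AG_CPI cells. The log2 differences were -0.23 for AG against NO_AG, -0.54 with AG_CPI against AG, then -0.77 with AG_CPI against NO_AG (SE 0.53 each, limma adjusted p = 0.916, 0.980 and 0.509). The second was -1.26 without AG 2, -1.25 at a Leiden resolution of 0.5 and -0.17 with a pseudocount of 0.5, and the third -1.73 without NO_AG 1, -0.44 at that resolution and -0.28 with that pseudocount.

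Over all cells the Il13 level was 0.342 and 0.409 in NO_AG, 0.510 and 0.125 in AG, then 0.0334 and 0.111 in AG_CPI. The AG_CPI mice were the 2 lowest of the 6. The log2 difference of AG_CPI against NO_AG was -1.38 (SE 0.45, limma adjusted p = 0.0564), which missed the threshold, and 3 of 11 alternatives passed it: the deposited scaling alone (-1.5, adjusted p = 0.0381), without AG 1 (-1.38, adjusted p = 0.00525) and without AG 2 (-1.38, adjusted p = 0.00475). Over the 11 it ran from -1.71 to -0.56, with adjusted p up to 0.275. ILC2-like cells were 2.08% and 2.41% of cells in NO_AG, 3.22% and 0.558% in AG, then 0.234% and 0.138% in AG_CPI. AG_CPI against AG gave -1.12 (SE 0.45, adjusted p = 0.187; -1.85 and 0.0318 without AG 2, -0.40 and 0.382 without AG 1) and AG against NO_AG -0.26 (SE 0.45, adjusted p = 0.791).

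Areg was the most widely spread member. γδ T-like cells held 52.9% of its UMIs in NO_AG, 19.9% in AG and 1.8% in AG_CPI, and Foxp3 T cells held 4.6%, 18.9% and 33.0%. T cells outside the Foxp3, CD4 and CD8 gates held 9.18%, 16.5% and 24.2%, and Keratinocyte-like cells 20.9%, 13.8% and 9.28%. By mouse the γδ T-like share was 53.9% and 50.5%, 20.9% and 18%, and 1.22% and 1.96%, with no overlap between groups. The Foxp3 T share was 4.39% and 5.11%, 24.4% and 8.11%, and 3.66% and 40.8%, so the 33.0% of AG_CPI came from AG_CPI 2, and AG_CPI 1 was below both NO_AG mice. These shares follow the number of cells as well as the level per cell. γδ T-like cells numbered 524 and 366 in NO_AG, 240 and 109 in AG, then 6 and 17 in AG_CPI, and Foxp3 T cells 24 and 22, 160 and 83, and 15 and 64.

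**Figure D4:**
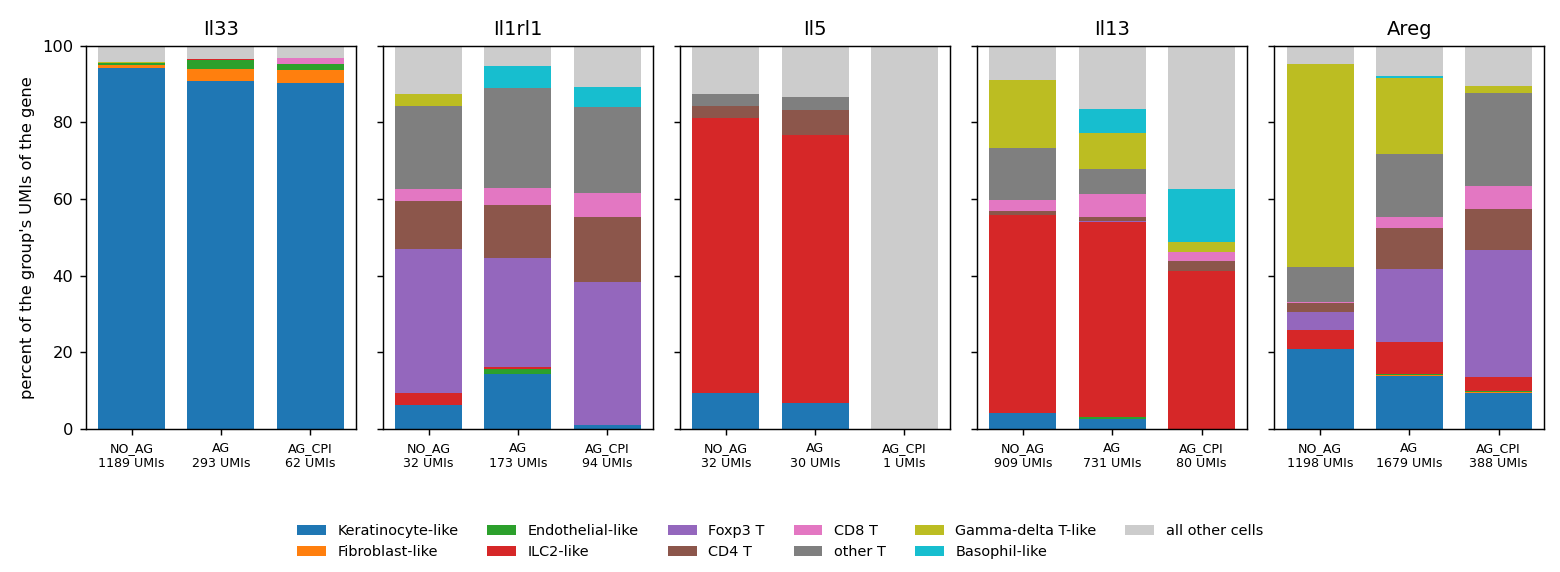
Percent of each group's UMIs of a member by cell class, summed over the 2 mice, with the number of UMIs under each bar. Il33 is keratinocyte in all 3 groups, the ILC2-like share of Il13 is 51.5% in NO_AG and 50.8% in AG, where AG 2 alone had 18.1%, and the Areg share of γδ T-like cells is 52.9% in NO_AG and 1.8% in AG_CPI. The Il5 bar of AG_CPI is 1 UMI.

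In ILC2-like cells the Areg level was 1.80 and 1.07 in NO_AG (1.44 ± 0.52, SD, n = 2) and 3.75 and 4.30 in AG (4.02 ± 0.39, SD, n = 2). Both AG mice lay above both NO_AG mice. Cells with an Areg UMI were 19.2% and 18.9% in NO_AG and 29.4% and 24% in AG, or 16.1%, 12.5%, 21.6% and 21.1% at 1500 UMIs. The log2 difference was 1.48 (SE 0.32). Its unadjusted limma p was 0.00056 and its adjusted p over 3417 genes 0.480, so it did not pass. Over 13 alternatives, of which the 2 that leave out an AG_CPI mouse do not alter this fit, the value ran from 1.16 to 1.84 and the adjusted p from 1.2e-06 to 1.00. It was past the threshold in 4 of them, with no filter on low values (0.00307), with the replicate number as a block (0.0259), without AG 1 and without AG 2. These 4 fits took the spread of Areg mostly from the other genes. Their limma priors had 148, infinite, 406 and 27.4 degrees of freedom, against 9.68 in the reported fit. Of the 4 fits, all but the first had 1 residual degree of freedom, so their adjusted p-values are given as values and not as support. The reported fit had 2 residual degrees of freedom, so it too took most of its spread from the other genes. At a Leiden resolution of 0.5 the ILC2-like class was not formed, and 330 of its 335 cells (98.5%) fell in a class named T cells, outside the CD4, CD8 and Foxp3 gates, so Il5, Il13 and Areg have no ILC2-like value there. The summed level of 19 keratinocyte markers in these cells was 7.61 and 6.32 in NO_AG and 7.23 and 8.78 in AG. Their mitochondrial UMIs were 4.99% and 4.19% in NO_AG and 3.69% and 3.84% in AG, with no overlap, and the part of either in the Areg level was not tested.

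In γδ T-like cells Areg stood at 3.12 and 1.46 in NO_AG and 3.62 and 4.77 in AG, again with both AG mice higher. The log2 difference was 1.09 (SE 0.36, limma adjusted p = 0.553), and with 1 mouse left out it ran from 0.52 (adjusted p = 1.00, without NO_AG 2) to 1.56 (adjusted p = 0.999, without NO_AG 1), passing at 1.33 (adjusted p = 0.00958, 1 residual degree of freedom) without AG 1. The summed level of 19 keratinocyte markers in these cells was 9.07 and 9.19 in NO_AG and 12.1 and 14.1 in AG, and its part in the Areg and Il13 values was not tested. In Foxp3 T cells the Areg level was 5.21 and 2.72 in NO_AG, 6.04 and 1.88 in AG, then 0.620 and 6.76 in AG_CPI. The mice within AG and within AG_CPI differed more than the groups did. The log2 differences there were -0.22 for AG against NO_AG, -0.61 with AG_CPI against AG, then -0.83 with AG_CPI against NO_AG (SE 0.79 each, adjusted p = 0.999, 0.989 and 0.776). In CD4 T cells Areg stood at 4.15 and 0.429 in NO_AG, 4.51 and 1.91 in AG, then 2.16 and 4.12 in AG_CPI, with all groups overlapping. The differences were 0.94, 0.08 and 1.02 in the same order (SE 0.80 each, adjusted p = 0.908, 0.988 and 0.614).

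CD8 T cells had Areg UMIs in 45 of 2079 cells (2.16%). This class leaves out cluster 35, which has Cd8b1 among its leading genes and holds 715 and 846 cells of the AG_CPI mice, against 275 and 276 in the class. At a Leiden resolution of 0.5 the class has 723 and 799 AG_CPI cells, and the Areg difference of AG_CPI against NO_AG is 0.92 (limma adjusted p = 0.123). The Areg level of the CD8 T class was 0 and 0.0240 in NO_AG, 0.136 and 0.132 in AG, then 0.291 and 0.0922 in AG_CPI, so both NO_AG mice lay below the other 4. Areg had 3 UMIs in the NO_AG cells of this class, 47 in AG and 23 in AG_CPI. It thus passed the filter on low values only through AG and AG_CPI mice. The differences from NO_AG that follow are therefore given as values and not as support. AG_CPI against NO_AG gave 1.31 (SE 0.34, limma adjusted p = 0.0530, 3.15% of 7203 genes called). AG against NO_AG gave 1.10 (SE 0.34, adjusted p = 0.215, 1.19% called) and, at a Leiden resolution of 0.5, 1.28 (adjusted p = 0.0452). AG_CPI against AG gave 0.21 (SE 0.34, adjusted p = 0.980, 0.0694% called). Allowing Trdc UMIs in the gate brought the first past the threshold (1.16, adjusted p = 0.0301), and so did leaving out AG_CPI 2 (1.82, adjusted p = 0.0219), while it was 0.79 (adjusted p = 0.516) without AG_CPI 1. In Keratinocyte-like cells Areg stood between 0.0548 and 0.216 in the 6 mice, with overlapping groups and differences of 0.30, 0.19 and 0.49 (SE 0.39 each, adjusted p = 0.953, 0.932 and 0.628). The last was 0.068 without AG_CPI 1 and 0.90 without AG_CPI 2. Over all cells it differed by 0.80 for AG against NO_AG, -0.95 with AG_CPI against AG, then -0.15 with AG_CPI against NO_AG (SE 0.50 each, adjusted p = 0.388, 0.292 and 0.846). With 1 mouse left out the first ran from 0.22 (without AG 1) to 1.39 (without AG 2) and the second from -1.54 (without AG 2) to -0.36 (without AG 1).

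**Figure D5:**
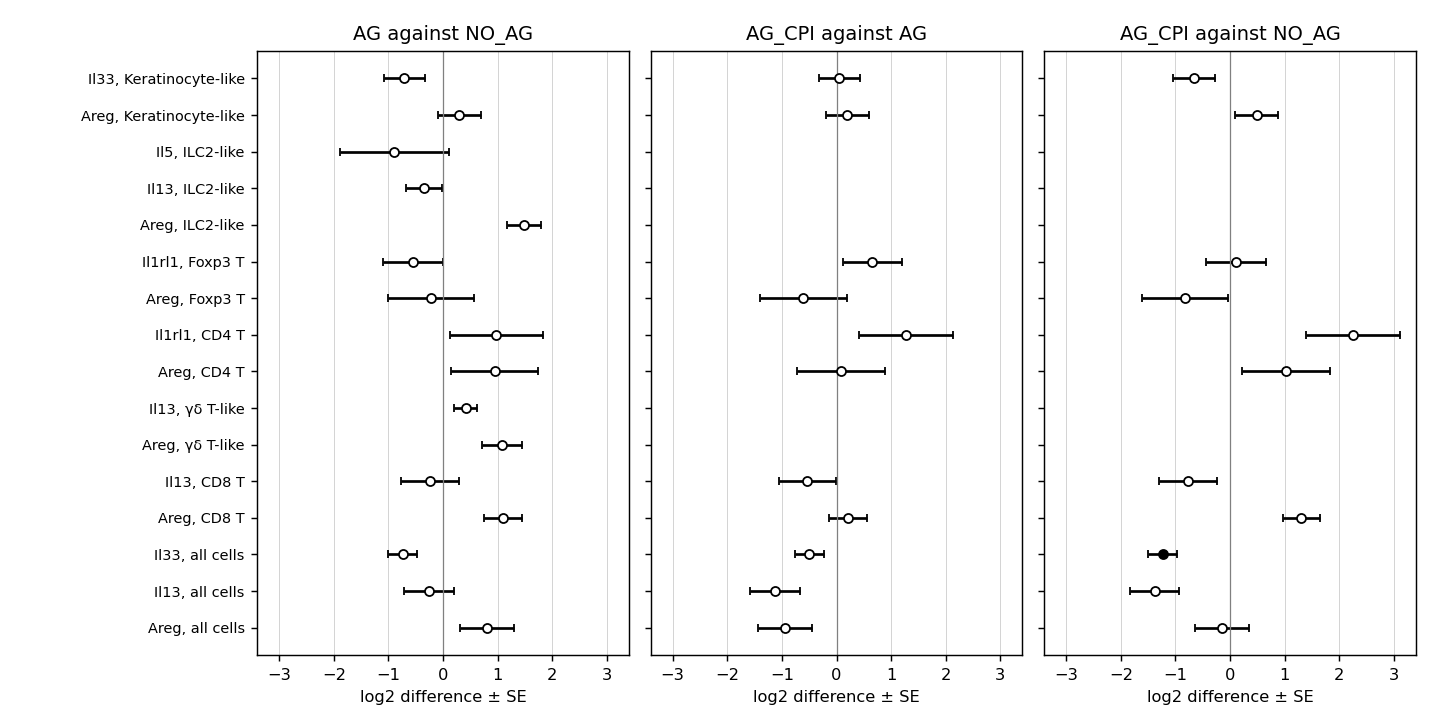
Log2 difference with its standard error for each member tested, in the 3 comparisons, which share mice. The classes drawn are Keratinocyte-like, ILC2-like, Foxp3 T, CD4 T, γδ T-like and CD8 T cells and all cells. The basal keratinocyte gate is not drawn. Filled points passed an adjusted p of 0.05. The 1 filled point is Il33 over all cells for AG_CPI against NO_AG, at -1.24.

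The members were found together unevenly in single cells. Of the 33 ILC2-like cells with an Il5 UMI, 26 (78.8%) also had Il13, while 26 of the 181 cells with Il13 (14.4%) had Il5. Areg shared 47 cells with Il13, which is 59.5% of its 79 and 26.0% of the Il13 cells. Of all 335 ILC2-like cells, 54.0% had Il13, 23.6% Areg and 9.85% Il5. The overlap of Areg with Il13 thus lay close to the shares over all cells of the class. Of the 73 Foxp3 T cells with Il1rl1, 28 (38.4%) had Areg, against 133 of all 368, and of the 26 such CD4 T cells 13 (50.0%) had Areg, against 47 of 283. In γδ T-like cells 59 of the 172 cells with Il13 (34.3%) had Areg, against 250 of all 1262. Deeper cells show more pairs, and these counts pool mice, so they are descriptions.

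The rest of the type 2 pathway was read from a list of 62 genes of receptors, signalling, transcription factors, EGF receptor ligands and type 2 effectors. In Keratinocyte-like cells 0 of the 32 listed genes that passed the filter were called by limma in each of the 3 comparisons, with 7, 5 and 9 (21.9%, 15.6% and 28.1%) at an unadjusted p under 0.05, beside 6.46%, 7.05% and 12.6% of all genes. Their median log2 difference for AG against NO_AG was 0.27 against -0.0045 for all genes. In ILC2-like cells 0 of 20 were called and 1 (5%, beside 4.33% of all genes) had an unadjusted p under 0.05, with a median of 0.28 against -0.03. In Foxp3 T cells 0 of 21 were called in each comparison, with 1, 2 and 5 at an unadjusted p under 0.05 (4.76%, 9.52% and 23.8%, beside 4.04%, 2.65% and 9.07% of all genes). In CD4 T cells 1 of 15 was called, Icos, a costimulatory receptor, for AG_CPI against NO_AG, beside 0.59% of all genes. Its level was 2.92 and 2.48 in NO_AG and 6.55 and 8.88 in AG_CPI, with no overlap (log2 difference 1.45, SE 0.28, limma adjusted p = 0.0497). In CD8 T cells 1 of 25 listed genes was called for AG against NO_AG, beside 1.19% of all genes, and 3 of 25 for AG_CPI against NO_AG, beside 3.15%. Icos rose in both comparisons with NO_AG, by 0.90 in AG (adjusted p = 0.0381) and by 1.5 in AG_CPI (adjusted p = 0.000421). Bhlhe40, a transcription factor of cytokine-producing T cells, rose by 1.06 (adjusted p = 0.0185), and Socs1, an inhibitor of cytokine signalling, fell by 1.57 (adjusted p = 0.0142), both for AG_CPI against NO_AG. With no filter on low values, 0 of 44 listed genes were called in CD4 T cells, and in CD8 T cells 0 of 47 for AG and 1 of 47 for AG_CPI against NO_AG. In Dendritic/Langerhans-like cells 0 of 21 listed genes were called for AG against NO_AG, where 1.58% of all genes were, and 8 (38.1%) had an unadjusted p under 0.05, beside 17.1% of all genes.

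In Monocyte/macrophage-like cells 1 of 30 listed genes was called for AG_CPI against AG, where 0.515% of 6606 genes were. This was Ccl24, a chemokine for eosinophils, at 1.22 and 15.9 in AG and 0.357 and 0.0772 in AG_CPI (log2 difference -4.01, SE 0.69, limma adjusted p = 0.0128), and it was not called with no filter. Over all cells 20 of 38 listed genes were higher and 5 lower in AG_CPI than in NO_AG, a called share of 65.8% beside 34.5% of all genes. For AG against NO_AG 9 of 38 were called (23.7% beside 6.0%), and 1 of 62 with no filter. For AG_CPI against AG 2 of 38 were called (5.26% beside 4.28%), a share near that of all genes. In AG_CPI against NO_AG Icos (2.81), Id2 (1.88), Crlf2, a chain of the TSLP receptor (1.79), Il7r (1.77), Il18r1 (1.67), Bhlhe40 (1.64), Pdcd1lg2 (1.59), Il2ra (1.51) and Stat5b (0.79) rose on the log2 scale, and Hpgds, a prostaglandin D synthase, fell by 1.63 (limma adjusted p from 0.000825 to 0.00348). The cell makeup of these groups differed, as the keratinocyte shares above show.

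The genes whose level followed each member most closely over 54 pairs of mouse and class, from 13 classes and among 11248 genes, are given as a description, since pairs of 1 mouse share a library. Il33 went with Ghr (Pearson r = 0.90), Slc27a3 (0.88) and Klhdc8b (0.85). Il1rl1 went with Klrg1 (0.84), Neb (0.83) and Tnfrsf4 (0.83). Il5 went with Il17rb (0.83), a chain of the IL-25 receptor, Cd70 (0.83) and Rnf208 (0.83), and Il13 with Znrf1 (0.79), Tnfsf14 (0.76) and Ly6g5b (0.75). Areg went with Il2ra (0.86), Tnfrsf18 (0.83) and Crem (0.80).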

How the data were processed

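Skin cells of 6 mice were sequenced singly, with 2 mice in each of 3 groups taken from the labels. Per the submitters' processing notes, Cell Ranger 3.1 and the mm10 build were used. The deposited values are log10 of 1 plus UMIs per 10000 UMIs of the cell, a scale read from the values: 100% of them gave whole UMIs within 0.1. The deposited cells have at least 1501 UMIs. Cells with under 200 genes or over 20% mitochondrial UMIs (51) and Scrublet doublets (666) were removed. Cells were clustered with scanpy 1.11.5, without the members, on 2000 variable genes, 30 components and 15 neighbors with Leiden resolution 1. A cluster was named when at least 60% of its classed cells were led by 1 marker list, at least 3 markers were detected, and no other list had more genes in its top 10. This scoring rule, the receptor gate on ILC2-like cells and the basal keratinocyte gate were settled after seeing the clusters, and an earlier rule that counted markers among each cluster's top genes was dropped. Cluster 35, with 1981 cells led by Ccl1, Gzma and Gzmf, stayed unnamed because its top genes hold more NK-like than T cell markers. Of its classed cells 97.1% were led by the αβ T cell list, and Cd8b1 is among its top genes.

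Means per mouse and class with at least 10 cells were scaled by trimmed means of M-values and tested with limma 3.58.1 on log2(mean + 0.1), for genes with 10 UMIs and a mean of 0.1 in at least 2 mice, with all groups in 1 fit. The fit was tested on simulated data. Wilson intervals (95%) cover counting error only. Alternatives were other scaling, pseudocount 0.5, no filter, each mouse left out, the replicate number as a block, doublets kept, Leiden resolution 0.5, members among the variable genes, UMI gates, Trdc allowed in T cell gates, thinning and, added after seeing the data, the basal gate. Named genes were the 5 members, the called genes of the pathway list (up to 10 a comparison by smallest p) and the 3 genes most like each member. The members and lists were chosen with earlier results of these data known. Nothing in the labels beyond the word biological ties the mice to litters or batches. The limma p-values rest on the spread between these mice, partly taken from other genes. Foxp3 T cells had 3 residual and 10.35 prior degrees of freedom, and Keratinocyte-like cells 3 and 3.82.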

Additional observations from a re-analysis of the deposited data

Results flagged for a closer look

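Ddx3y, a Y-linked gene outside the measurements reported above, had 92 UMIs outside the T cells of AG_CPI 1 and none in the 2 NO_AG mice or in the other 3 mice. The sex of the mice is not given in the labels, and its part in the member levels of AG_CPI was not tested. Without this mouse the Il33 difference of AG_CPI against NO_AG was -1.09 in Keratinocyte-like cells and -1.24 (limma adjusted p = 0.0774) over all cells.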

How the results depend on the processing

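Of 535 alternative values of the 41 member differences, 482 kept direction and side of the threshold, 15 passed it where the reported value had not, 4 lost it and 34 changed sign, and the cause was not tested. The replicate differences of 2 groups were hardly correlated (r = -0.07, 0.04 and -0.04 over 8854 genes). These values cannot show whether mice of 1 replicate number were handled together, because the cell makeup of the mice also differed. The replicate block made 1 new call, Areg in ILC2-like cells (1.48, adjusted p = 0.0259), as did dropping the filter (1.48, adjusted p = 0.00307). Dropping the filter left 1 and 0 listed pathway genes called over all cells for AG against NO_AG and AG_CPI against AG, in place of 9 and 2.

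With 1 mouse left out, Il33 ran from -0.44 to 0.53 in Keratinocyte-like cells for AG_CPI against AG. Over all cells it ran from -1.17 to -0.30 for AG against NO_AG, -0.94 to -0.068 for AG_CPI against AG and -1.33 to -1.16 for AG_CPI against NO_AG, where called genes ran from 1160 to 3829 in place of 3054. In the basal gate it ran from -1.49 to 0.78 and from -2.25 to 0.0049 for AG_CPI against AG and NO_AG. In ILC2-like cells, where such fits leave 1 residual degree of freedom and a lone mouse is assumed to vary like the other group, Areg ran from 1.16 to 1.84, Il13 from -0.80 to 0.13 and Il5 from -1.25 to 0.62.

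Areg in Foxp3 T cells ran from -1.02 to 0.66, -2.22 to 0.96 and -2.42 to 0.75 for the 3 comparisons (AG to NO_AG, AG_CPI to AG, AG_CPI to NO_AG), and in CD4 T cells from -0.61 to 2.49, -0.60 to 0.62 and -0.54 to 2.56. Il1rl1 ran from -1.23 to 0.12 and -0.57 to 0.78 in Foxp3 T cells for AG and AG_CPI against NO_AG, and from -0.58 to 2.55 in CD4 T cells for AG against NO_AG. Areg ran from -0.17 to 0.76 and -0.27 to 0.65 in Keratinocyte-like cells for AG against NO_AG and AG_CPI against AG, and from -0.67 to 0.34 over all cells for AG_CPI against NO_AG. Il13 over all cells ran from -0.98 to 0.47 for AG against NO_AG. In CD8 T cells Il13 for AG against NO_AG (-0.23) ran from -1.19 to 0.49 and was 0.82 at Leiden resolution 0.5 and 0.88 with UMI gates. Areg for AG_CPI against AG (0.21) ran from -0.31 to 0.72 there and was -0.36 at resolution 0.5, -0.41 with UMI gates and -0.50 with doublets kept. Apart from Il33 over all cells, no member difference passed the test in the reported fits. There were 2 mice a group and few UMIs of Il5, Il1rl1 and, outside keratinocytes, Il33. The size of a member difference that these fits could detect is not given here.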

Other observations

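In the unnamed cluster 35, which is led by Ccl1, Gzma and Gzmf, 33 of 1981 cells (1.67%) had an Il13 UMI and 37 (1.87%) an Areg UMI. Its cells numbered 3 and 12 in NO_AG, 290 and 115 in AG, then 715 and 846 in AG_CPI. The Il13 level there was 0.356 and 0.0972 in AG, from 28 and 4 UMIs, against 0.0211 and 0.0868 in AG_CPI, from 4 and 26. Both AG mice were higher than both AG_CPI mice, and the difference was not tested. In the NO_AG mice the 15 cells gave 3 Il13 UMIs.

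Cells of cluster 19 that carried a T cell receptor UMI were kept out of the ILC2-like class. Of these 187 cells, 32 (17.1%) had Il13 UMIs and 21 (11.2%) had Areg UMIs, against 54.0% and 23.6% of the ILC2-like cells, at median depths of 2334 and 2371 UMIs. They had 7 Il5 UMIs. Tslp, an epithelial alarmin of the pathway list, had 221 UMIs in the Keratinocyte-like cells of AG 2, a level of 0.313, and levels from 0 to 0.0207 in the other 5 mice.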
